A study of Mus musculus with 6 samples.

Results

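The wild-type (WT) yolk sac at embryonic day 9.5 is described here from its 3 messenger RNA libraries, of 6 libraries in the study. They were taken by their label, WT, and not by any measured value. The embryos were untreated, of the outbred CD1 strain and wild type at every locus the labels name. The other 3 libraries, labelled DKO, come from yolk sacs without the Cdx1 and Cdx2 transcription factors, and no value of theirs is used. The labels do not say whether a WT library is a lone yolk sac or a pool, or whether libraries come from separate litters, so SDs measure only the spread between these 3 samples, which may be technical. No group is compared with another, and no hypothesis test was run. Where 3 values follow each other, they are those of WT libraries 1, 2 and 3 in that order.

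The mouse yolk sac has an outer layer of visceral endoderm, an absorptive epithelium that takes up maternal nutrients and secretes plasma proteins before the liver does. Beneath it lies extraembryonic mesoderm, which gives the mesothelium, the fibroblast-like stroma, the first blood vessels and the first blood cells. At this stage nearly all circulating cells are primitive erythroblasts, which carry embryonic globins, and the visceral endoderm expresses much of the gene programme later used by the liver and the intestine.

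All 7 markers given for the tissue were present in every library. The endoderm marker Afp, the fetal plasma carrier alpha-fetoprotein, stood at 9886, 6803 and 7905 CPM (counts scaled to the same total in every library, CPM). Apob, the structural protein of the lipoprotein particles that the endoderm secretes, stood at 9404, 9463 and 7064 CPM, and Ttr, the thyroid hormone and retinol carrier transthyretin, at 1630, 1457 and 1738 CPM. The primitive erythroid globins Hbb-bh1 and Hbb-y had 4840, 3473 and 4511 CPM and 3608, 1760 and 2461 CPM, in this order of genes. The endothelial marker Cdh5, the adhesion protein VE-cadherin, had 94.8, 126 and 123 CPM, and Lyve1, a hyaluronan receptor of yolk sac endothelium, had 171, 168 and 161 CPM. The labelled tissue and its markers therefore did not conflict, and Hbb-y was the marker with the widest spread, 2.05-fold between the highest library and the lowest.

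The 3 libraries held 26855337, 20532298 and 20040601 counts over 25239 gene rows, and 3 counts in a library equalled 0.112, 0.146 and 0.150 CPM. Of these genes, 12345 (48.9%) reached 1 CPM in every library, 8932 reached 10 CPM, 2165 reached 100 CPM and 86 reached 1000 CPM, while 6558 had no count in any of the 3. The 10 most abundant genes held 6.42% ± 0.228 of counts, the top 100 held 20.8% ± 0.246, and 868 genes held the first 50% (SD, n = 3). Counts were therefore spread over many genes, and H19, the highest on average, held 0.882%, 0.909% and 0.915% of them. Protein-coding genes held 96.6% ± 0.0364 of counts, and long intergenic noncoding RNAs held 1.03% ± 0.00835, most of it from H19. Xist, the RNA of the inactive X chromosome, had 147, 97.7 and 116 CPM, and the Y-linked genes Ddx3y, Eif2s3y, Kdm5d and Uty together had 99.7, 115 and 72.3 CPM, so every library held transcripts of both kinds.

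By raw share of counts the leading gene was H19, an imprinted noncoding RNA (chr7:142575529-142578143, - strand, mm10), with 8815, 9085 and 9150 CPM and a coefficient of variation (CV, SD over mean) of 1.97%. Apob and Afp followed. Next came Eef1a1, the elongation factor that brings tRNA to the ribosome, with 7184, 6924 and 7604 CPM, and Slc2a3, the high-affinity glucose transporter GLUT3, with 6662, 7424 and 6555 CPM. Cubn, the endocytic receptor cubilin, had 5904, 6742 and 4743 CPM. The ranges of H19, Apob and Afp overlap, so the order of these 3 is not settled by the libraries. Of the 40 genes with the highest CPM, 9 were in an endoderm list (Apob, Afp, Cubn, Apoe, Apoa1, Rbp4, Cltc, Dab2 and Ctsl), 3 were embryonic globins, and 14 were in the lists of translation and general cell genes.

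Long transcripts collect more fragments than short ones, so levels of different genes were compared as TPM, counts divided by exon length and scaled to the same sum in every library. On this scale the 3 embryonic globins came to the front. Hbb-bh1, the beta-like globin of primitive erythroblasts, had 19770, 14458 and 17923 TPM. Hba-x, the embryonic alpha-like globin zeta, had 13708, 9499 and 13058 TPM, and Hbb-y, the embryonic epsilon-type globin, had 14275, 7097 and 9468 TPM. The Hbb-bh1 range lay above both others, while the ranges of Hba-x and Hbb-y overlapped. Eef1a1 averaged 10066 ± 240 TPM, Afp 9916 ± 1862 TPM and H19 9849 ± 257 TPM (SD, n = 3), and these 3 were not separated from each other or from Hbb-y beyond their spread. Apoa1, the main protein of high-density lipoprotein, averaged 7181 ± 588 TPM, Ftl1, the ferritin light chain, 6371 ± 264 TPM, and Rbp4, the plasma carrier of retinol, 4947 ± 215 TPM. Apob, whose exons span 13934 bases, ranked 2 by CPM and 80 by TPM, with 1690, 1733 and 1235 TPM. Of the 40 genes highest by CPM, 21 were also among the 40 highest by TPM.

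**Figure D1:**
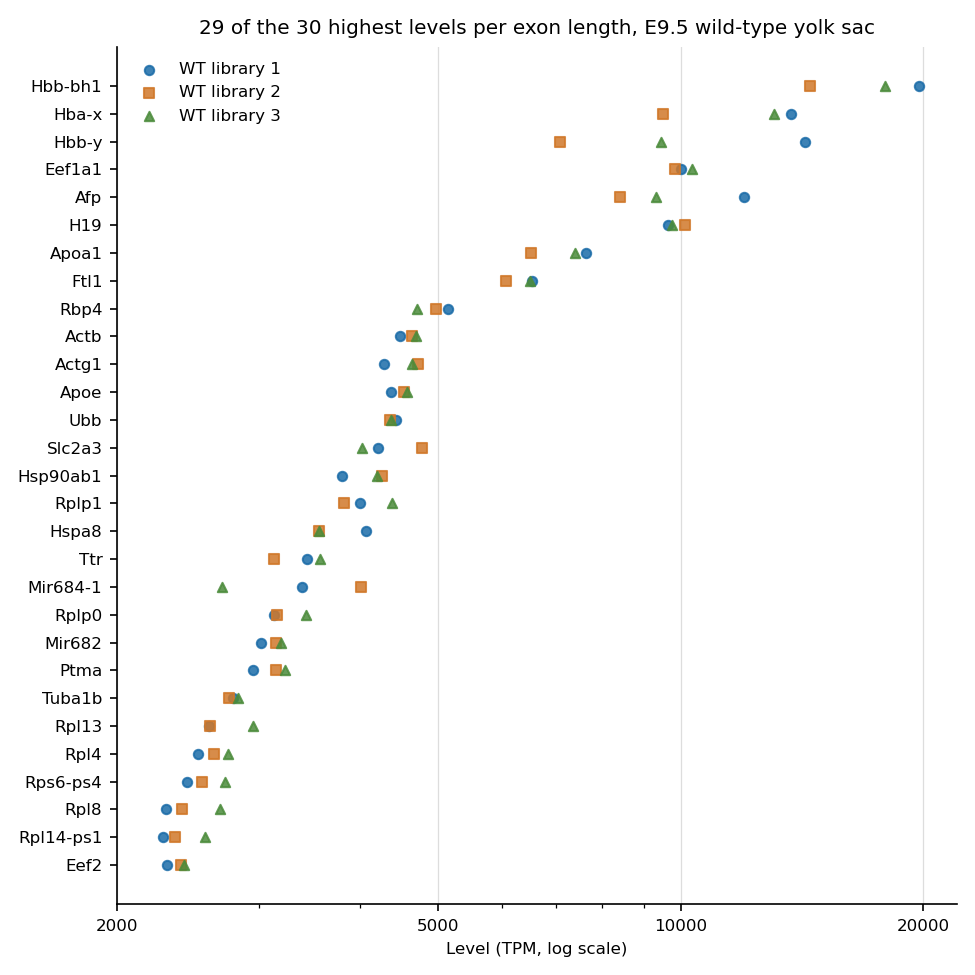
Level in TPM (log scale) of 29 of the 30 genes with the highest mean TPM, 1 row a gene and 1 symbol for each of the 3 WT libraries. Hbb-bh1, Hba-x and Hbb-y lead; their symbols are spread more widely than those of Eef1a1, H19 or Rbp4, with WT library 1 highest and WT library 2 lowest for all 3 globins.

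The promoters of 5 of these genes are printed because they belong to the leading transcripts of the erythroid and the endodermal cells: the zeta and epsilon-type globins, and Afp, Apob and Cubn. Each window runs from 250 bases before to 50 bases after the RefSeq start in GRCm38.p6, 5′ to 3′ on the gene's strand, namely Hba-x at chr11:32276350-32276649 on the + strand, Hbb-y at chr7:103853158-103853457 on the - strand, Afp at chr5:90490464-90490763 on the + strand, Apob at chr12:7977427-7977726 on the + strand and Cubn at chr2:13491827-13492126 on the - strand. Capitals mark exact matches to TATAAA on the gene's strand within 60 bases before the start (the letters of the TATA box). They also mark GATAA on either strand anywhere (GATA, the core that GATA factors bind, followed by A). GATA followed by another base was neither marked nor counted. No match of 1 motif overlaps a match of the other in these windows.
Hba-x: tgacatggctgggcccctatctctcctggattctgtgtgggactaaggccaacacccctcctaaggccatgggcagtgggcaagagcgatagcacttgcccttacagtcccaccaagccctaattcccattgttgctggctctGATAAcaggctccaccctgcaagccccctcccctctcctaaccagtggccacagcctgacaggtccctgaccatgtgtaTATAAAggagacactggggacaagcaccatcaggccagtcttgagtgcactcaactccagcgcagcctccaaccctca
Hbb-y: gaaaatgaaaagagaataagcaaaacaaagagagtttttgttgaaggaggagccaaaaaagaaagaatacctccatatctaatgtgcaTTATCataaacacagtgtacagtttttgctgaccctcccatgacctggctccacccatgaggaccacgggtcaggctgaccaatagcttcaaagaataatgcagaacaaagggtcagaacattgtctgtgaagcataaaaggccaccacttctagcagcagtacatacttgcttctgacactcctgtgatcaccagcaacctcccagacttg
Afp: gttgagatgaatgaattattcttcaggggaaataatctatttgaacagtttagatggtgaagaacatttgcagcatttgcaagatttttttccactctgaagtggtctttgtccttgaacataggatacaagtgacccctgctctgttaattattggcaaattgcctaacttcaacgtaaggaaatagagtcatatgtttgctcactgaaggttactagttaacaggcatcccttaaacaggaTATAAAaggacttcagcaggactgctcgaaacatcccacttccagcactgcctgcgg
Apob: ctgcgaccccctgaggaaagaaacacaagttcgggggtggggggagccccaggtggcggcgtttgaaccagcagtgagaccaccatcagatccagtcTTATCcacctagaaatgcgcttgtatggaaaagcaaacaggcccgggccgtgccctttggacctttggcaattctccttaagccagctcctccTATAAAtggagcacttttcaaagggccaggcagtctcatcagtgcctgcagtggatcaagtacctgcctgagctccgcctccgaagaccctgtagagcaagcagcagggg
Cubn: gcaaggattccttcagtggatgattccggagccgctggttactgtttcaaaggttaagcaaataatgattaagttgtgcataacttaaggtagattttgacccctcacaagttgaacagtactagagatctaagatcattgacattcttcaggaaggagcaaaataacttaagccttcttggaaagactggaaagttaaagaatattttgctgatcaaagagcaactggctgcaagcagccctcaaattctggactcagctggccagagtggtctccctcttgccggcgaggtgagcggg
Hba-x, Afp and Apob held TATAAA in that stretch, with its first base 28, 7 and 60 bases before the start in this order of genes, and Hbb-y and Cubn did not. These distances are from the RefSeq starts. The GENCODE gene starts of Hba-x, Afp and Apob lie elsewhere, at chr11:32276400, chr5:90490737 and chr12:7977648, and would give other distances. Neither the letters nor such a distance alone makes a match a TATA box. Hba-x, Hbb-y and Apob each held 1 GATAA or its reverse complement, and Afp and Cubn held none.

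Over all 18651 promoters matched to a gene row, TATAAA lay within 60 bases before the start in 3.53% and GATAA anywhere in 22.9%. The share with this TATA match was 7.30% among genes with no count, 0.975% among genes of 10 to 100 CPM and 7.58% (5 of 66) among genes of 1000 CPM and over. Afp and Apob are 2 of these 5, and the stretch was widened to include their matches, so the last share is not read further. The share with GATAA was 38.3% among genes with no count, 14.9% among genes of 10 to 100 CPM and 22.7% among genes of 1000 CPM and over. CpG content ran the other way between the first 2 of these groups, with a median of 0.667 CpG per 100 bases in genes with no count, 7.33 in genes of 10 to 100 CPM and 7.33 in those of 1000 CPM and over. Of 18 promoters of erythroid membrane and nuclear genes 50.0% held GATAA. Of 15 promoters of lipoprotein genes 40% did, close to the share among genes with no count. Over all 95 promoters of the blood lists 35.8% did, below that share, and over the 106 of the endoderm lists 26.4%. The other lists counted stood at 27.6% (ribosomal proteins and translation), 17.6% (visceral endoderm transcription factors) and 15.8% (carriers). These shares of small lists are not read further. The motifs and the 60-base stretch were chosen after values and sequences had been seen: a first stretch, from 40 to 15 bases before the start, missed the Afp and Apob matches and was widened. A match is a string of letters and not a measured binding site.

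The visceral endoderm lists together held 6.56%, 6.28% and 6.0% of counts (145 genes, mean 6.28% ± 0.277, SD, n = 3). By TPM their share was 6.20% ± 0.265, but the lists within it moved in opposite ways: the carriers held 1.4% of counts and 2.06% by TPM, and the endocytic receptors and adaptors 1.38% of counts and 0.557% by TPM. Some members are not particular to endoderm. Stab1 and Stab2 are in the endothelial list too, and other cells also express lysosomal genes (0.889% by TPM). A class share is therefore that of its lists and not of a tissue. In bulk RNA, more cells of a type and more RNA per cell cannot be told apart, here and for every other class.

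The carrier list held 1.59%, 1.22% and 1.38% of counts, and 17 of 25 genes averaged at least 1 CPM and 6 exceeded 100 CPM. Not every member is a plasma carrier: the 6 include the metallothioneins Mt1 and Mt2, and the 17 also include Amn1 (4.34 CPM). Behind Afp, Rbp4 had 2531, 2404 and 2387 CPM and Trf, the iron carrier transferrin, had 1436, 1218 and 1245 CPM. The metallothioneins Mt1 and Mt2, which bind zinc and copper, had 171, 160 and 218 CPM and 150, 139 and 190 CPM. Per length Rbp4 averaged 4947 TPM, Trf 1180 TPM and Ambp, the precursor of alpha-1-microglobulin, 55.5 TPM. Ambp had 29.9, 26.8 and 27.8 CPM. The alpha-1-antitrypsin copies Serpina1a to Serpina1d averaged between 4.53 and 8.52 CPM, with reads that near-identical copies may share. A further copy, Serpina1e, averaged 5.20 TPM. Orm1, an acute-phase carrier of the adult liver, had under 3 counts in every library. The carrier set was therefore made up of a few very high genes and many low ones.

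Lipoprotein genes held 1.92%, 1.88% and 1.69% of counts for 20 genes, more than the carriers in every library. By TPM the order of the means turned, with 1.90% ± 0.0614 for lipoprotein genes and 2.06% ± 0.221 for carriers (SD, n = 3). After Apob came Apoe, a ligand for lipoprotein uptake, with 3207, 3268 and 3458 CPM, Apoa1 with 3156, 2643 and 3141 CPM, and Apoa4, an apolipoprotein of intestinal particles, with 1441, 1514 and 1309 CPM. Mttp, the transfer protein that loads lipid onto Apob, had 604, 623 and 662 CPM, and Dgat2, which makes triglyceride, had 227, 228 and 210 CPM. Per length Apoa1 averaged 7181 TPM, Apoe 4496 TPM, Apoa4 1958 TPM and Apoa2 1606 TPM. Particle proteins and the assembly genes were thus both present. Of the 18 members with a mean of at least 1 CPM, 4 differed past 1.5-fold between the highest and the lowest library, where 10.2% of all 12698 such genes did, and none past 2-fold, where 2.89% did, which for 18 genes is less than 1 gene. The median CV of the list was 11.1%, against 7.65% over all such genes.

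Uptake genes held 1.39%, 1.51% and 1.23% of counts for 18 genes, all at 1 CPM or more in every library. Cubilin's membrane partner Amn (amnionless) had 457, 432 and 481 CPM, far fewer counts than Cubn but on a shorter transcript. By TPM the 2 partners stood at 1289 for Cubn and 670 for Amn. Lrp2, the giant receptor megalin, had 1145, 1356 and 1027 CPM, the clathrin adaptor Dab2 1857, 2021 and 1938 CPM, and the clathrin heavy chain Cltc 1992, 2095 and 1839 CPM. Igf2r, which removes IGF2 and sorts lysosomal enzymes, had 752, 805 and 648 CPM, the folate receptor Folr1 224, 214 and 242 CPM, and the high-density lipoprotein receptor Scarb1 289, 286 and 277 CPM. The receptors with the longest transcripts, Cubn and Lrp2, were lowest in WT library 3, while Amn and Folr1 were highest there.

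The lysosomal list, whose products digest what these receptors bring in, had the steadiest values of the endoderm lists, with a median CV of 3.78% over 20 genes against 7.65% over all genes with a mean of at least 1 CPM. Of the 20, 17 stood at 100 CPM or more, and over all genes of 100 to 1000 CPM the median CV was 5.11%. None of the 20 passed 1.5-fold between the highest and lowest library, and 0.985% of all genes of 100 to 1000 CPM did, so the count is no more than such levels give. The cathepsin proteases Ctsl and Ctsb had 1628, 1988 and 2054 CPM and 1120, 1049 and 1094 CPM, and the asparaginyl protease legumain (Lgmn) had 1197, 1382 and 1576 CPM. Legumain averaged 1712 TPM, cathepsin Z (Ctsz) 1191 TPM and the membrane protein Lamp1 1093 TPM.

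The transcription factors of this layer took few counts, together 0.135%, 0.128% and 0.126% of counts for 25 genes, every one of which reached 1 CPM in every library. Hnf4a, a nuclear receptor needed for visceral endoderm function, led with 449, 421 and 427 CPM. Maf had 183, 165 and 151 CPM, Creb3l3, a membrane-bound activator of liver and gut lipid genes, 146, 141 and 124 CPM, and Gata4 98.7, 96 and 97.8 CPM. Foxa2 averaged 36.6 ± 0.403 CPM and Gata6 34.2 ± 1.03 CPM (SD, n = 3). Gata4 and Foxa2 differed by only 1.03-fold and 1.02-fold between the highest and lowest library. Cdx2, the caudal-type homeobox gene targeted in the DKO embryos, stood at 16.7, 18.9 and 20.5 CPM in these WT libraries, and its relative Cdx1 had 0, 1 and 8 counts.

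Epithelial genes were similarly steady, with a median CV of 4.41% over 14 genes and none past 1.5-fold. Of the 14, 12 stood at 100 CPM or more. Over all genes of 100 to 1000 CPM the median CV was 5.11% and 0.985% passed 1.5-fold, so the count is no more than such levels give. The microvillus linker Ezr (ezrin) had 1026, 1058 and 1048 CPM, Krt8 707, 759 and 754 CPM and its filament partner Krt18 462, 463 and 478 CPM. The tight junction protein Cldn6 had 549, 524 and 538 CPM, E-cadherin (Cdh1) 435, 409 and 411 CPM and the brush border protein villin (Vil1) 302, 299 and 320 CPM. Coagulation genes were expressed as well: the fibrinogen chains Fga, Fgb and Fgg had 312, 255 and 232 CPM, 199, 226 and 201 CPM and 191, 151 and 130 CPM, in this order of genes. Plasminogen (Plg) had 84.8, 55.3 and 70.5 CPM and prothrombin (F2) 46.2, 31.4 and 46.7 CPM, whereas the factors F9, F11 and F12 had under 3 counts in every library.

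Blood lists held 2.24%, 1.65% and 2.07% of counts (131 genes, 1.99% ± 0.304, SD, n = 3), with WT library 2 the lowest. By TPM the same genes held 5.28% ± 0.900, because globin transcripts are short. The endoderm lists held 6.20% ± 0.265 on that scale. Neither share is that of a tissue. The heme and iron list, 1.06% by TPM, is mostly the ferritin genes Ftl1 (6371 TPM) and Fth1 (1995 TPM), which many cells express. The 3 embryonic globins alone made up 1.28%, 0.822% and 1.13% of CPM and 4.78%, 3.11% and 4.04% of TPM. Summed beta-like globin TPM (Hbb-bh1 plus Hbb-y) over Hba-x was 2.48, 2.27 and 2.10, while Hbb-bh1 over Hbb-y was 1.34, 1.97 and 1.83 by CPM. The beta-like genes therefore did not keep 1 proportion between the libraries.

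Other globins were low or at 0. The theta globin row Hbq1b had 6.37, 4.43 and 4.59 CPM, and Hba-a1, an adult alpha globin, had 0.0745, 0 and 0.0998 CPM, under the 3-count level in each library. The adult rows Hba-a2, Hbb-bs and Hbb-bt had no count, as did the older symbols Hbb-b1 and Hbb-b2. The adult alpha genes are near-identical copies, as are the adult beta genes, and how multiply placed reads were counted is not given in the sources used here, so these zeros set no limit on adult globin RNA.

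Erythroid membrane and nuclear genes held 0.218%, 0.162% and 0.190% of counts. Slc4a1, the anion exchanger band 3, had 485, 325 and 413 CPM, Epb41, the cytoskeletal protein 4.1, 236, 221 and 235 CPM, and Car2, carbonic anhydrase, 234, 174 and 214 CPM. The spectrin chain Sptb had 235, 177 and 187 CPM. In heme synthesis, Alas2, the erythroid first enzyme, had 140, 90.9 and 125 CPM, and Slc25a37, the mitochondrial iron importer mitoferrin, 309, 203 and 276 CPM. Of the 26 erythroid membrane and nuclear genes that averaged at least 1 CPM, 20 were highest in WT library 1, where 32.2% of all such genes were highest, and 23 were lowest in WT library 2, where 29.1% of all such genes were lowest. Of the globins and heme genes with a mean of at least 1 CPM, 4 of 5 and 14 of 19 were lowest in that library too.

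Among the factors that direct blood formation, Zfpm1, the GATA1 cofactor FOG1, had 136, 130 and 164 CPM, Tal1, needed for all blood lineages, 89.9, 72.2 and 93.8 CPM, Klf1, the erythroid globin activator, 48.5, 41.2 and 53.9 CPM, and Gata1 35.9, 28 and 39 CPM. Their list was lowest in WT library 2 for 14 of 26 genes, where 29.1% of all genes with a mean of at least 1 CPM were lowest, and highest there for 10, where 30% were highest.

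Other blood lineages were faint. Among 19 megakaryocyte and platelet genes the summed share was 0.0224%, 0.0188% and 0.0182% of counts. Itga2b, an early haematopoietic and platelet integrin, had 29.5, 25.7 and 26.1 CPM, and Pf4, platelet factor 4, had 4.58, 1.7 and 1.5 CPM. Of 24 macrophage and myeloid genes only 9 averaged at least 1 CPM. Mrc1, a mannose receptor also known in endothelium, led with 75.2, 67.6 and 59.4 CPM, the growth factor receptor Csf1r had 4.92, 4.29 and 2.3 CPM, and the complement genes C1qa, C1qb and C1qc stayed at or below 0.186 CPM in each library. All 9 were highest in WT library 1, as were 12 of 14 megakaryocyte genes, where 32.2% of all genes with a mean of at least 1 CPM were. Levels were low, with medians over all members of 0.494 CPM in the macrophage list and 2.66 CPM in the megakaryocyte list.

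Vessel lists held 0.325%, 0.350% and 0.330% of counts (89 genes, 0.335% ± 0.0130, SD, n = 3). The pan-endothelial list held 0.153% and the arterial, venous and Notch list 0.107%. The third list, 0.0744%, is of growth factor ligands and hedgehog genes, which are not particular to vessels. Lyve1, Kdr, Plvap and Cdh5 formed a cluster of similar counts. Kdr, the main VEGF receptor, had 110, 135 and 108 CPM, and Plvap, the protein of endothelial fenestrae, 113, 114 and 120 CPM. Tek, the angiopoietin receptor TIE2, had 103, 121 and 104 CPM and its relative Tie1 50.5, 55.4 and 58 CPM. By TPM, Plvap averaged 145, Lyve1 144, Cdh5 71.7 and Kdr 49.6. Among artery and vein genes Nrp2 had 236, 240 and 213 CPM and Nrp1 152, 167 and 138 CPM, both co-receptors for VEGF and semaphorins, and the venous receptor Ephb4 had 112, 120 and 138 CPM. Per length Ephb4 averaged 70.3 TPM and its arterial ligand Efnb2 16.1 TPM. Apln, the ligand of endothelial tip cells, had 15, 27.8 and 25.9 CPM.

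The endothelial order of the libraries was not that of blood. Of 31 pan-endothelial genes that averaged at least 1 CPM, 21 were lowest in WT library 1, where 35.4% of all such genes were lowest, and 16 of 25 arterial, venous and Notch genes were lowest there too. The exceptions included Stab1 and Stab2, scavenger receptors of sinusoid-like endothelium, with 111, 95.6 and 73 CPM and 110, 94.8 and 63.4 CPM, which were highest in WT library 1 and are among the long transcripts. Signals for these vessels were present as well: Vegfa had 74, 65.7 and 76.7 CPM, and the endoderm-derived hedgehog ligand Ihh had 65.5, 59.5 and 68.2 CPM. Per length Vegfa averaged 51.1 TPM beside 49.6 TPM for Kdr, and Ihh 65.1 TPM beside 44.5 TPM for the hedgehog receptor Ptch1.

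Mesoderm lists held 1.83%, 1.66% and 1.43% of counts (98 genes, 1.64% ± 0.201, SD, n = 3), most of it from the interstitial matrix list (1.49%, 1.29% and 1.09%). Igf2, the fetal growth factor, had 2979, 2989 and 2542 CPM, though its longest annotated transcript shares 75.9% of read-length windows with transcripts of other genes. Fibronectin (Fn1) had 2603, 2551 and 1843 CPM. The fibrillar collagens Col1a1, Col1a2 and Col3a1 had 2534, 1296 and 1058 CPM, 784, 516 and 412 CPM and 1074, 738 and 741 CPM, in this order of genes. Sparc, a matrix protein that binds collagen, had 763, 708 and 692 CPM. All 3 collagens were higher in WT library 1 than in the others, whereas Sparc was nearly even.

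Mesodermal transcription factors took 0.0621%, 0.0654% and 0.0572% of counts, with 27 of 35 averaging at least 1 CPM. Hand1, needed for yolk sac vessels and mesoderm, had 119, 130 and 116 CPM, Foxf1, the hedgehog-responsive factor of yolk sac mesoderm, 49, 51.8 and 55.2 CPM, and Tbx20 51.1, 52.2 and 35.6 CPM. The primitive streak factors T and Mesp1 had under 3 counts in every library. In the contractile list Myh9, nonmuscle myosin, led with 1080, 1141 and 1051 CPM, and Acta2, smooth muscle actin, had 148, 184 and 193 CPM. The heart hormone Nppa had under 3 counts in each library.

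Basement membrane genes held 0.784%, 0.771% and 0.708% of counts. The type IV collagens Col4a1 and Col4a2 had 1482, 1532 and 1432 CPM and 767, 782 and 724 CPM, and Serpinh1, the collagen chaperone HSP47, 1288, 1172 and 1172 CPM. Laminin chains Lamc1, Lamb1 and Lama1 had 388, 423 and 327 CPM, 399, 383 and 347 CPM and 221, 230 and 187 CPM, in this order of genes. Of 22 members that averaged at least 1 CPM, 18 were lowest in WT library 3, where 35.5% of all such genes were lowest.

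**Figure D2:**
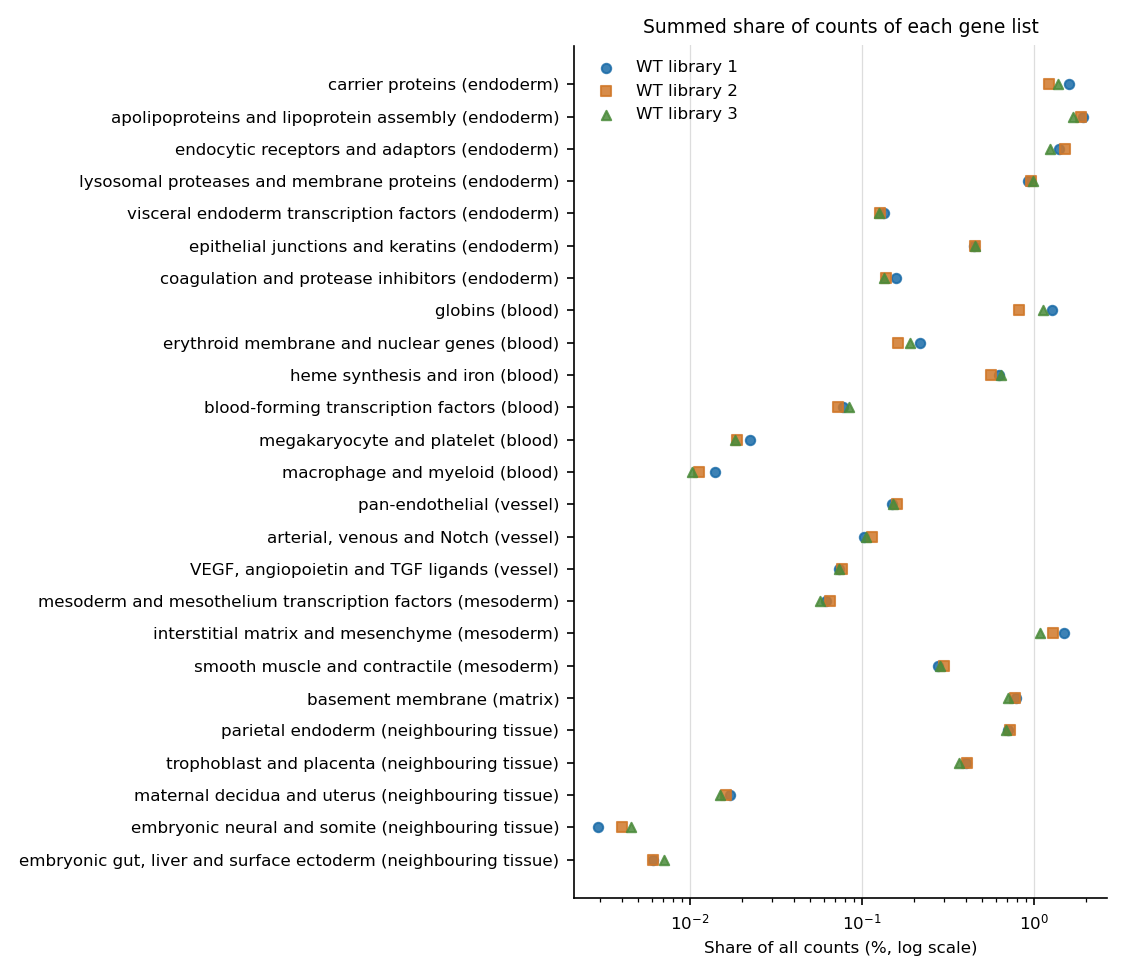
Summed share of all counts (log scale) of each tissue gene list in the 3 WT libraries, with the class of the list in brackets and 1 symbol a library. Lipoprotein genes (1.92%, 1.88% and 1.69%) lie furthest to the right, the embryonic neural and somite list (0.00292%, 0.00401% and 0.00455%) furthest to the left; the globins (1.28%, 0.822% and 1.13%) and interstitial matrix (1.49%, 1.29% and 1.09%) show wide gaps between libraries.

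Neighbouring tissues could enter a dissected yolk sac, and their genes were read as lists. Parietal endoderm lies against the yolk sac, but its list overlaps with basement membrane and was not separable: Podxl, a sialomucin, had 2013, 2034 and 2015 CPM, and Pth1r, a receptor of parietal endoderm, 80.5, 76.9 and 74.6 CPM. In the trophoblast and placenta list 16 of 30 genes averaged at least 1 CPM. The highest of them, the imprinted genes Peg10 (3138, 3272 and 2977 CPM), Cdkn1c (444, 390 and 316 CPM) and Phlda2 (167, 153 and 142 CPM), are widely expressed outside trophoblast.

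The genes of trophoblast giant cells showed another pattern. The placental lactogen gene Prl3d1, which has near-identical copies, had 0.447, 4.82 and 0.20 CPM, Prl4a1 0.372, 7.06 and 0 CPM, Prl2c2 0.894, 8.67 and 1.5 CPM, and the trophoblast factor Tfap2c 0.223, 5.55 and 0.20 CPM. In counts, Tfap2c had 6, 114 and 4. These genes were thus seen mainly in WT library 2, with the summed share of that list at 0.402%, 0.410% and 0.364%. The later placental genes Prl3b1, Prl8a9, Psg17, Tpbpa, Ctsq and Pappa2 had under 3 counts in every library. Krt7, a keratin of trophoblast and mesothelium, was instead highest in WT library 1, with 103, 59.4 and 41.7 CPM. Genes of the maternal decidua and uterus held 0.0170%, 0.0162% and 0.0150% of counts, with 8 of 25 at a mean of 1 CPM or more, led per length by Adamts1, a matrix protease, at 39.4 TPM. Among genes of uterine natural killer cells, the granzymes Gzmd, Gzmg and Gzme had 1.3, 0.925 and 0.249 CPM, 1.08, 0.487 and 0.15 CPM and 0.707, 0.341 and 0.0998 CPM, in this order of genes, all highest in WT library 1 and lowest in WT library 3, whereas Ncr1 and Gzmb had no count in any library. The decidual prolactin-family gene Prl8a2 had 0.894, 0.925 and 0.399 CPM. The origin of these transcripts was not tested.

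The embryo lists held few counts, 0.00292%, 0.00401% and 0.00455% for neural and somite genes and 0.00612%, 0.00610% and 0.00701% for gut, liver and surface ectoderm genes. Of 34 neural and somite genes 4 averaged at least 1 CPM, led by the intermediate filament gene Nes (nestin) with 23, 29.6 and 30.2 CPM, which endothelium also expresses. The neural and eye factor Pax6 had 0.0372, 0.146 and 1.25 CPM, Pax3, of dorsal neural tube and somites, 0.335, 0.244 and 1.4 CPM, Sox2 0.261, 0.292 and 1.1 CPM and Sox1 0, 0.0974 and 0.649 CPM. These 4, named after their values were seen, were highest in WT library 3, whereas the neuronal tubulin Tubb3 was highest in WT library 2, with 0.782, 3.46 and 0.948 CPM. The forebrain factor Otx2 and the muscle factors Myod1 and Myog had no count. In the gut, liver and surface ectoderm list 9 of 25 genes averaged at least 1 CPM. Tdo2, a tryptophan-degrading enzyme of liver, had 26.9, 30 and 27.5 CPM, the gut mesenchyme factor Nkx2-3 15.8, 15.4 and 18.2 CPM and the pancreas and duodenum factor Pdx1 3.13, 3.17 and 3.74 CPM. Krt15, a basal epithelial keratin, had 5.14, 0.195 and 7.19 CPM, near the 3-count level in WT library 2.

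**Figure D3:**
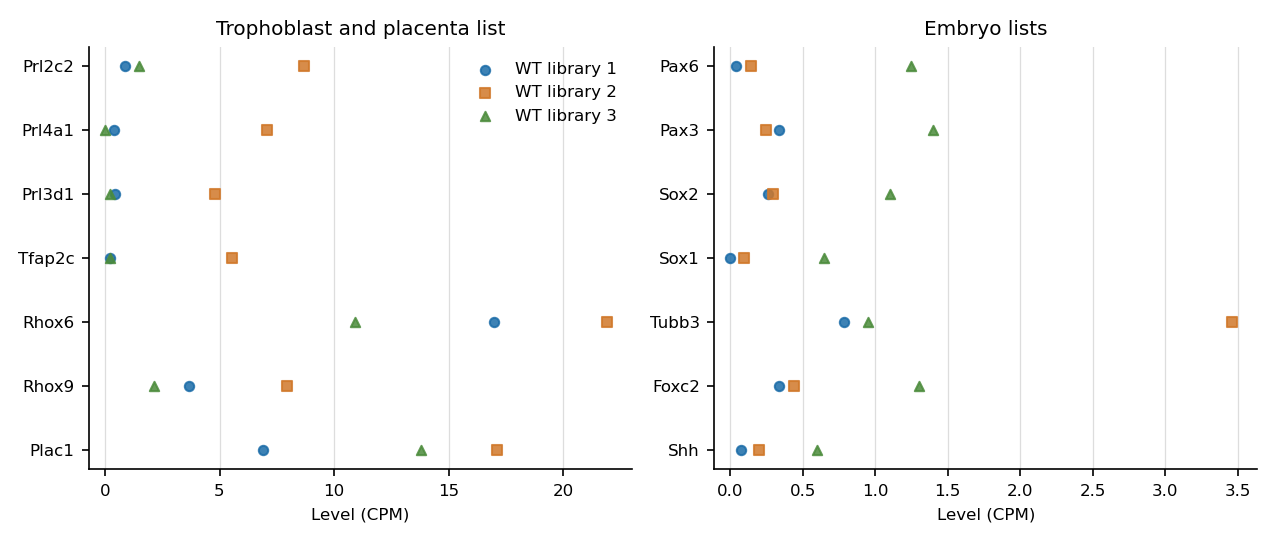
Level in CPM (linear scale) of 7 genes of the trophoblast and placenta list (left) and 7 genes of the embryo lists (right), 1 symbol a WT library; the genes were picked for display after their values were seen. Prl2c2 stood at 0.894, 8.67 and 1.5 CPM and Tfap2c at 0.223, 5.55 and 0.20 CPM, with WT library 2 apart, while Pax6 at 0.0372, 0.146 and 1.25 CPM has WT library 3 apart.

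Housekeeping lists held 9.95%, 10.1% and 10.8% of counts, the highest of the classes. Energy genes were led by Slc2a3, with Slc2a1, the glucose transporter GLUT1, at 1550, 1464 and 1497 CPM, and Slc2a2, the liver and gut transporter GLUT2, at 469, 462 and 480 CPM. By TPM the 3 transporters averaged 4344, 1152 and 211, in this order of genes, and their ranges did not overlap. Slc16a1, the lactate and ketone transporter MCT1, had 1867, 2109 and 1867 CPM, and embigin (Emb), a membrane partner of such transporters, 1574, 2297 and 1869 CPM. Lactate dehydrogenase A (Ldha) had 1287, 1370 and 1416 CPM and pyruvate kinase (Pkm) 1178, 1343 and 1459 CPM. None of the 20 glycolysis genes with a mean of at least 1 CPM passed 1.5-fold between libraries, and 14 of them stood at 100 CPM or more. Over all genes 0.985% passed at 100 to 1000 CPM and 3.26% at 1000 CPM and over. Below that, 3.35% passed at 10 to 100 CPM and 29.9% at 1 to 10 CPM. The amino acid carriers Slc7a8 and Slc43a2 had 492, 452 and 459 CPM and 237, 238 and 238 CPM, and the zinc importer Slc39a4 198, 166 and 153 CPM. Sterol and fatty acid genes held 0.263%, 0.269% and 0.273% of counts, cell cycle genes 0.634%, 0.647% and 0.636%, and hypoxia and immediate early genes 0.0846%, 0.0866% and 0.0827%. None of the 26, 32 and 23 members of these 3 lists at a mean of 1 CPM or more passed 1.5-fold either, where 10.2% of all such genes did, 1038 of the 1294 at under 10 CPM.

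Imprinted genes held 2.09%, 2.11% and 2.01% of counts for 32 genes, of which H19, Peg10 and Igf2 were the largest part. Mest had 640, 757 and 728 CPM, Dlk1, a Notch-like ligand of mesenchyme, 586, 538 and 546 CPM, and the noncoding RNA Rian 502, 447 and 502 CPM. Lin28a, an RNA-binding protein of early development, had 785, 819 and 793 CPM and Igf2bp1, which binds Igf2 mRNA, 406, 449 and 370 CPM. The pluripotency genes Pou5f1, Tdgf1 and Dppa3 had under 3 counts in each library. Of 39 Hox genes 15 averaged at least 1 CPM. Hoxc8 had 24.9, 25.2 and 21.2 CPM, Hoxb4 7.67, 9.16 and 8.88 CPM and Hoxb8 7.34, 8.86 and 8.48 CPM, whereas Hoxb13, Hoxc12, Hoxd10, Hoxd11 and Hoxd12 had under 3 counts in every library.

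The 3 libraries ranked genes alike. Pearson's r of log2(CPM + 0.5) across the 12345 genes at 1 CPM or more in every library was 0.9942 between WT 1 and WT 2, 0.9918 between WT 1 and WT 3 and 0.9936 between WT 2 and WT 3. This is a correlation across genes, which are not independent replicates. Counts of the same gene differed by more than counting error, with chi-square per degree of freedom of 11.9, 16.1 and 12.5 for these pairs, so no library is a copy of another. The biological coefficient of variation, edgeR's estimate of the spread beyond counting error, was 9.25%. It came to 10.7% without WT library 2 and 7.96% without WT library 3.

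Differences past 2-fold on the log2(CPM + 0.5) scale were found for 93 of 12698 genes (0.732%) between WT 1 and WT 2 (0.347% higher and 0.386% lower in WT 1), for 127 (1.0%) between WT 1 and WT 3 (0.606% higher and 0.394% lower in WT 1), and for 92 (0.725%) between WT 2 and WT 3 (0.441% higher and 0.284% lower in WT 2). A pair of libraries has no replicate check, so these are counts of genes and not of tested changes. Between the highest and the lowest library 1294 genes (10.2%) passed 1.5-fold and 367 (2.89%) passed 2-fold, and 319 of the 367 averaged under 10 CPM. The median CV was 14.4% for genes of 1 to 10 CPM, 6.88% from 10 to 100 CPM and 5.11% from 100 to 1000 CPM. The steadiest genes above 100 CPM included Ywhab, a 14-3-3 adaptor, with 409, 410 and 409 CPM, Hspd1, the mitochondrial chaperonin HSP60, with 1501, 1510 and 1506 CPM, and Ctnnb1, beta-catenin, with 933, 931 and 938 CPM.

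The 15 widest ratios above 10 CPM belonged to genes of different kinds. Lars2, the mitochondrial leucyl-tRNA synthetase, had 213, 472 and 99.9 CPM, a 4.72-fold range. The row Mir6236 had 78.9, 114 and 27.2 CPM, and Rn45s, the ribosomal RNA precursor, had 1562, 2134 and 727 CPM. Cwc22, a splicing factor, had 75.5, 169 and 50.7 CPM. All 4 were highest in WT library 2 and lowest in WT library 3, and Rn45s is a ribosomal transcript that libraries of messenger RNA are meant to lack. Whether the Lars2, Mir6236 and Cwc22 rows hold reads of ribosomal RNA rather than of their gene was not tested. Replication-dependent histone rows had another order: Hist1h2an had 12.8, 16.2 and 33.2 CPM and H2ac10 13, 16.3 and 34.1 CPM, highest in WT library 3, on rows whose sequences are near-identical. With 11 rows near ribosomal RNA repeats and histone rows left out, a list added later, the biological coefficient of variation was 9.06% in place of 9.25%. Pop4, a ribonuclease P subunit, had 11.9, 31.7 and 41.2 CPM, the stress-induced chaperone Hspa1a 22.5, 9.79 and 8.93 CPM, and the cardiac myosin-binding protein Mybpc3 7.97, 13.8 and 21 CPM.

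**Figure D4:**
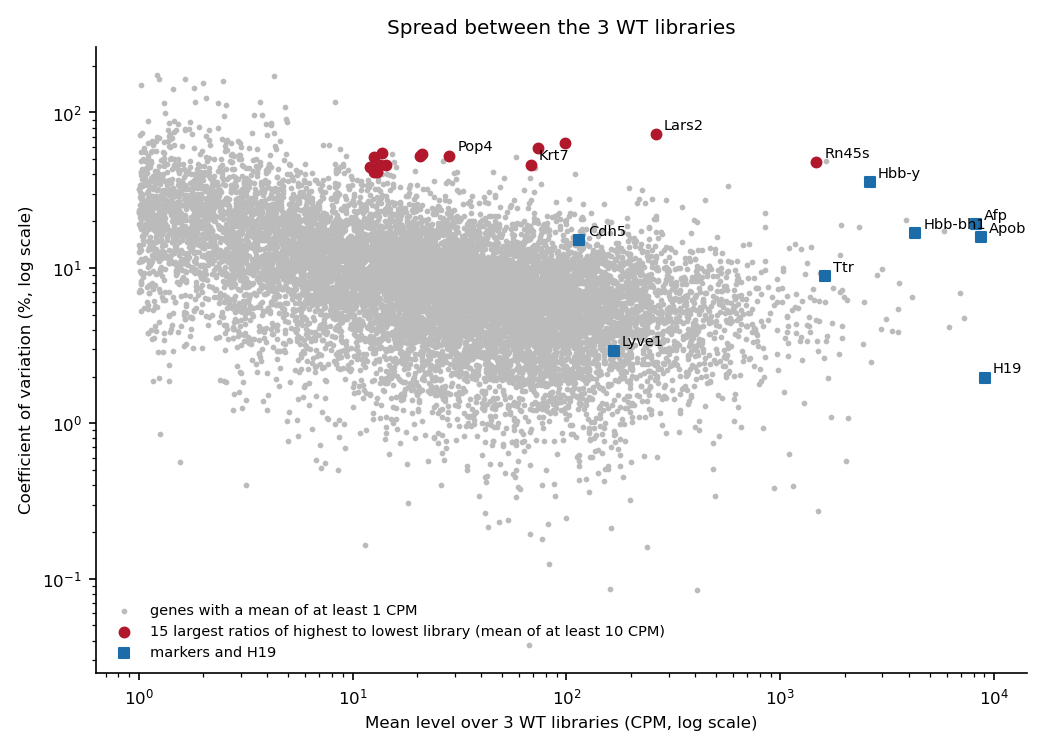
Coefficient of variation over the 3 WT libraries (log scale) against mean level in CPM (log scale), for genes with a mean of at least 1 CPM (grey), the 15 widest ratios above 10 CPM (red) and the 7 markers with H19 (blue). The grey cloud sinks from a median of 14.4% at 1 to 10 CPM to 5.11% at 100 to 1000 CPM; Lars2 (72.9%) and Rn45s (48%) lie far above genes of their level, and Hbb-y (35.7%) above the other markers.

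In several lists most members had their highest or lowest value in the same library. Ribosomal protein and translation genes were highest in WT library 3 for 73 of the 76 members that averaged at least 1 CPM, where 37.9% of all such genes were highest, although by a small amount: the median member stood 0.18 above the other libraries' mean on the log2 scale. Eef1a1, Rplp0 and Rpl4 show it, the ribosomal proteins Rplp0 and Rpl4 with 1697, 1682 and 1915 CPM and 1546, 1588 and 1732 CPM. Interstitial matrix genes were lowest in WT library 3 for 24 of 34 members, where 35.5% of all such genes were lowest. Their median was −0.36 there and 0.23 in WT library 1. The erythroid list had medians of 0.32, −0.37 and 0.03, and the carriers 0.22, −0.29 and −0.07.

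Exon length moved with the libraries as well. Genes with at most 1000 exon bases were highest in WT library 3 in 64.1% of 537 cases, and genes over 8000 bases in 13.1% of 902 cases, with 64.9% of these lowest there. The median log2 deviation of WT library 3 was 0.115 in the shortest group, 0.023 from 2000 to 4000 bases and −0.143 in the longest. WT library 2 ran the opposite way, from −0.078 in the shortest group to 0.102 in the longest, and WT library 1 went from −0.065 to 0.030. Ribosomal protein transcripts are short, and Fn1, Cubn, Lrp2, Apob, Ahnak and Hspg2 are long. The part of transcript length, and of the RNA quality it can reflect, in the differences between lists was not tested. In the carrier and erythroid lists the median was highest in WT library 1 and lowest in WT library 2. In the shortest genes WT library 2 was also lowest, by the median and in 43.4% of cases, but WT library 3 was highest. In the longest genes WT library 2 was highest and WT library 3 lowest.

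**Figure D5:**
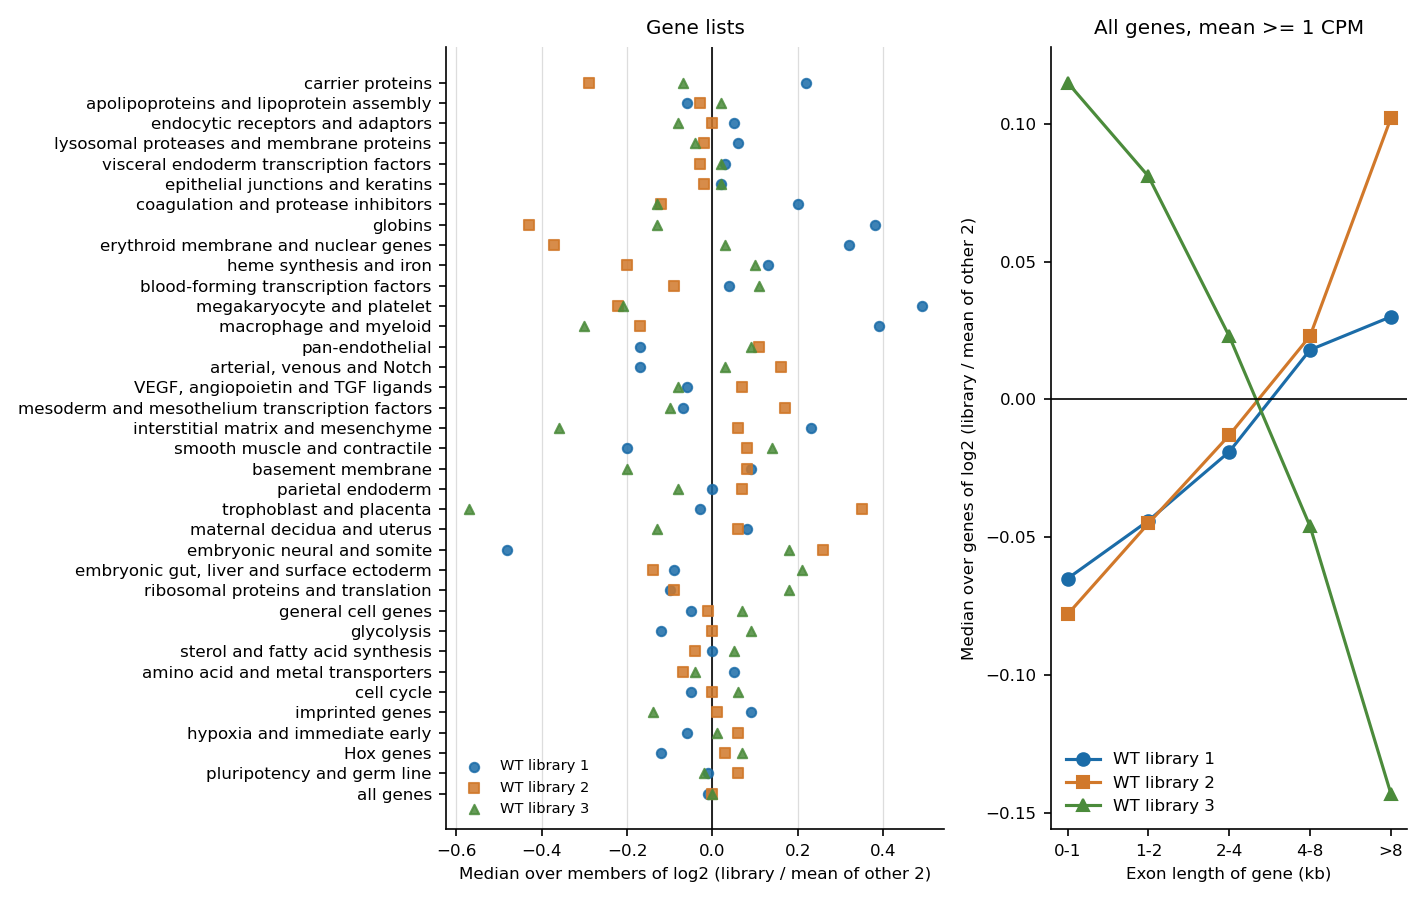
Left, median over the members of each list of the log2 ratio of a WT library to the mean of the other 2 libraries, 1 symbol a library; right, the same median over all genes with a mean of at least 1 CPM, by exon length in kilobases. WT library 3 falls from 0.115 in the shortest genes to −0.143 in the longest, and erythroid genes (0.32, −0.37 and 0.03) and ribosomal genes (−0.10, −0.09 and 0.18) separate the libraries in different orders.

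Some rows cannot be read as levels of their gene. Among 74 ribosomal protein rows the median was 480 CPM, but 5 (Rpl21, Rpl26, Rpl30, Rpl34 and Rps27) stayed at or under 3.67 CPM and the next lowest had 19.5 CPM. Gapdh, the glycolytic enzyme, had 125, 122 and 133 CPM, and 82.5% of its read-length windows of 50 bases also occur in transcripts of other genes. Rows of copies held many counts: the processed pseudogene rows Rps6-ps4 and Rpl14-ps1 had 731, 750 and 838 CPM and 594, 604 and 690 CPM, and the enolase copy Eno1b had 1351, 1420 and 1527 CPM beside 1290, 1352 and 1464 CPM for Eno1. The 5 low ribosomal rows shared between 25.8% and 63.1% of their windows and the other ribosomal rows between 0% and 86.7%; the part of shared sequence in the low rows was not tested. Of all genes with a mean of at least 1 CPM 2.99% shared more than 50% of their windows, and 18 of the 90 with at least 1000 CPM did. At the other end, none of 1132 olfactory receptor rows reached 1 CPM in every library, and the highest, Olfr985, had 0.41, 0.584 and 1.15 CPM. The microRNA rows Mir684-1 and Mir682, which stand among the 30 highest TPM, share 97.3% and 100% of their windows with transcripts of other genes.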

How the data were processed

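The deposited file holds whole-number counts of reads for each gene symbol, and its 3 WT columns were used unchanged. Per the labels' protocols RNA was purified on columns, messenger RNA libraries were made and single-end reads of 50 bases were sequenced. The submitters' processing notes name mm10, SAMtools and DESeq2 without saying which version was used or for what. Per the file headers the BAM files were subsets, and of what is not stated. Which aligner, counter, annotation and strand setting produced the counts is not given in the sources used here, so overlapping and antisense genes, and copies, may share reads.

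From these counts CPM (by total counts) and TPM were computed. TPM used the union of exons in GENCODE M21 basic (mm10), which matched 24366 symbols holding 98.8% of counts; 873 rows got no TPM. Pairs of libraries were compared on log2(CPM + 0.5) after TMM scaling for genes averaging at least 1 CPM, and the biological coefficient of variation came from edgeR 4.0.16 (R 4.3.3, intercept only). Size factors of DESeq2 1.42.0 were an alternative. On simulated counts with 10.0% variation the script recovered 9.99%, and 197 of 200 genes changed 4-fold passed 2-fold. Tables were made with Python 3.11.15 and pandas 2.3.3. Read-length windows are all 50-base stretches of a gene's longest GENCODE M21 basic transcript. A window is shared if it occurs exactly, on the same strand, in a transcript of another gene. Promoters came from RefSeq (GRCm38.p6).

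The 37 gene lists (922 genes, 917 in the table) and the members were chosen with earlier results of these data known, and 6 lists, some lists' lower members and the motifs after values were seen. Named genes are the 7 markers, the 40 highest by CPM, the 30 highest by TPM, the 8 highest of each list and members under 3 counts, the 15 largest ratios of highest to lowest library above 10 CPM and the 10 smallest CVs above 100 CPM; others were named after their values were seen, and some genes under these rules are not reported here. Depth limits low values: a level near 3 counts (0.112 to 0.150 CPM) is counting noise. Alternatives were other scalings, per-length levels, other filters and pseudocounts, and each library left out.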

Additional observations from a re-analysis of the deposited data

How the results depend on the processing

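Of the alternative values for the main results, 54 moved by less than the spread between libraries or, for counts of genes, by under 1.5-fold, and 24 moved more; none reversed, since no difference between groups was called, though the order of the lipoprotein and carrier lists turned per kilobase of exon (1.90% and 2.06%). Per kilobase of exon the 100 highest genes held 28.5% in place of 20.8%, and without globins 20.2%. Per kilobase of exon, and with the longest transcript as the length (an alternative added after the data were seen), the blood share became 5.28% and 5.07%, vessel 0.215% and 0.215%, mesoderm 0.914% and 0.925%, and matrix 0.398% and 0.405%; with members of 1 class only, vessel became 0.294%, mesoderm 1.11% and matrix 0.347%. The construction of these alternatives, which divide by length or drop shared genes, sets their direction. Of the 40 genes highest by CPM, 21 stayed among the 40 highest per kilobase of exon, and 21 with the longest transcript. Genes past 2-fold numbered 14, 28 and 10 for WT 1 with WT 2, WT 1 with WT 3 and WT 2 with WT 3 once a mean of 10 CPM was required. Pearson's r with no filter was 0.9973, 0.9969 and 0.9971 for these pairs, and at 10 CPM or more it was 0.9899 for WT 1 with WT 3 and 0.9923 for WT 2 with WT 3. The biological coefficient of variation ran between 7.96% and 10.7% as each library was left out. No paired analysis was possible because no test between groups was made. TMM and DESeq2 scaling moved no level of the 13 genes followed beyond its spread, with TMM factors of 0.997, 1.001 and 1.002. Leaving out a library did not either, but a mean of 3 libraries cannot move past its own SD in that way. That outcome was fixed in advance and shows nothing about robustness. The same holds for the class shares with a library left out, which are counted among the 54. With 3 libraries of unknown origin, the SDs are themselves imprecise, genes near 3 counts cannot be ranked, and rows of near-identical genes are uncertain under every setting.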

Other observations

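Retinoid genes, a list chosen after values were seen, were uneven in level. Rbp4 carries retinol out of the endoderm, and Bco1, which makes retinal from carotene, averaged 58.1 ± 3.41 CPM (SD, n = 3) and the retinol dehydrogenase Rdh10 38.5 ± 3.68 CPM. The synthesis gene Aldh1a2 had 0.707, 0.877 and 5.44 CPM, and the degrading enzyme Cyp26a1 had 4.02, 9.11 and 11.6 CPM. Aldh1a2 was thus seen mainly in WT library 3, the library in which Pax6 and Sox1 were also highest, and Cyp26a1 was lowest in WT library 1.

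Ligands and their receptors, another list chosen after values were seen, were mostly present together. The stem cell factor Kitl had 34.6, 41.8 and 28.7 CPM and its receptor Kit 10.3, 16.4 and 16 CPM. The erythropoietin receptor Epor averaged 28.6 ± 3.93 CPM, while the ligand Epo had 0.112, 0.341 and 0.0998 CPM, near the 3-count level. Bmp4, a mesoderm signal for blood, had 22.4, 27 and 21.6 CPM and its receptor Bmpr1a 100, 101 and 88.8 CPM. The angiopoietins Angpt1 and Angpt2 had 9.9, 12.8 and 10.6 CPM and 3.84, 4.04 and 4.44 CPM; per length they averaged 6.5 and 2.88 TPM, below the 58 TPM of their receptor Tek. Colony-stimulating factor 1 (Csf1) had 18.8, 17.5 and 17.4 CPM and its macrophage receptor Csf1r 4.92, 4.29 and 2.3 CPM.

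Long noncoding RNAs other than H19 varied more. Meg3 had 300, 159 and 216 CPM, Malat1, a nuclear RNA, 45.5, 38.3 and 24.9 CPM, and Neat1, the paraspeckle RNA, 18.3, 8.28 and 12.9 CPM. All 3 were highest in WT library 1, as were 9 of the 12 members, where 32.2% of all genes with a mean of at least 1 CPM were. S100g, the calcium-binding protein calbindin-D9k, had 408, 331 and 398 CPM and, per length, 1970 TPM on average.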
